A study of Ovis aries with 2 samples.

Results

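Leukocytes, the white blood cells of the tissue, were few in single-cell libraries of sheep testis: 90 of 15839 barcodes carried their markers. A barcode was counted as a leukocyte when it held at least 500 unique molecular identifiers (UMIs, one per captured RNA molecule) and at least 2 UMIs of C1QA, C1QB, C1QC and PTPRC together. It also had to hold 0 UMIs of the endothelial genes VWF and CDH5 and at most 1 UMI of the plasma cell genes JCHAIN and MZB1. Members with at least 1 C1Q UMI are called macrophages and the rest other leukocytes. The rule gave 64 members in the ZEA library, 49 macrophages and 15 others, and 26 in the control library, 14 macrophages and 12 others. The cells were thus chosen by the measured UMIs of these genes, so their levels and the numbers of cells describe the choice and were not tested.

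The series holds 2 libraries, 1 labelled ZEA with the number 0.75 (its unit is not given in the labels) and 1 labelled control. Both are labelled as testis of Ovis aries at 8 months and were made with the 10x Genomics 3' gel bead kit of version V3, in which each droplet tags the RNA of about a single cell. ZEA is the usual abbreviation of zearalenone, an oestrogenic mycotoxin of Fusarium moulds. That reading is not in the labels, which also leave out the route of exposure and the number of animals behind each library.

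Macrophages are the main leukocytes of the testis. They lie in the interstitial space beside the Leydig cells and around the tubules, and are known for clearing dead cells, for presenting antigen on MHC class II and for keeping inflammation low in a tissue that tolerates germ cells. C1QA, C1QB and C1QC encode the chains of C1q, the recognition part of complement, which tissue macrophages make in large amounts. PTPRC encodes CD45, a phosphatase on the surface of all nucleated leukocytes. T cells and natural killer (NK) cells are the other leukocytes usually found in the interstitium.

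The ZEA library held 8809 barcodes with 22148456 UMIs and the control library 7030 with 53044981. Outside the leukocytes the median barcode had 1408 UMIs in the ZEA library and 4306.5 in the control library, and mitochondrially encoded genes took a median of 0.774% and 0.0463% of UMIs. The leukocytes were closer in depth, with medians of 1252 UMIs for ZEA macrophages, against 1536.5 for control macrophages, and of 1279 for other ZEA leukocytes, against 1902.5 for other control leukocytes. The libraries shared 15 barcode sequences, of which 1 was a ZEA member and 0 were control members. With 1 library per group no test between groups was possible, and a difference between treatments cannot be told apart from one between animals, tissue pieces, preparations or the software versions named in the file headers. Intervals are exact, at 95%, and cover counting error only.

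Macrophages made up a larger share of the ZEA library. They were 49 of 8809 barcodes (0.556%, interval 0.412 to 0.735), against 14 of 7030 in the control library (0.199%, 0.109 to 0.334), a ratio of 2.79 (1.52 to 5.48). Other leukocytes made up nearly equal shares, 0.170% (0.0953 to 0.281) of ZEA barcodes and 0.171% (0.0882 to 0.298) of control barcodes, a ratio of 0.998 (0.436 to 2.33). Macrophages were thus 76.6% of ZEA leukocytes (64.3 to 86.2) and 53.8% of control leukocytes (33.4 to 73.4). Endothelial barcodes, with at least 2 UMIs of VWF and CDH5, numbered 1696 in the ZEA library and 6 in the control library, so another interstitial cell type was also more frequent in the ZEA library. The part of such a shift in cell makeup in the macrophage ratio was not tested.

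The cells nearest the threshold differed between libraries. Exactly 1 marker UMI was found in 133 further ZEA barcodes of median depth 1310 UMIs, 48 of them with C1Q, and in 102 further control barcodes of median depth 13526, 21 of them with C1Q. Exactly 2 marker UMIs were held by 18 ZEA members, against 14 control members, and 4 or more by 37 ZEA members, against 12 control members. The exclusion for VWF and CDH5 removed 1 barcode of each library, and that for JCHAIN and MZB1 removed 1 ZEA barcode and 0 control barcodes.

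**Figure D1:**
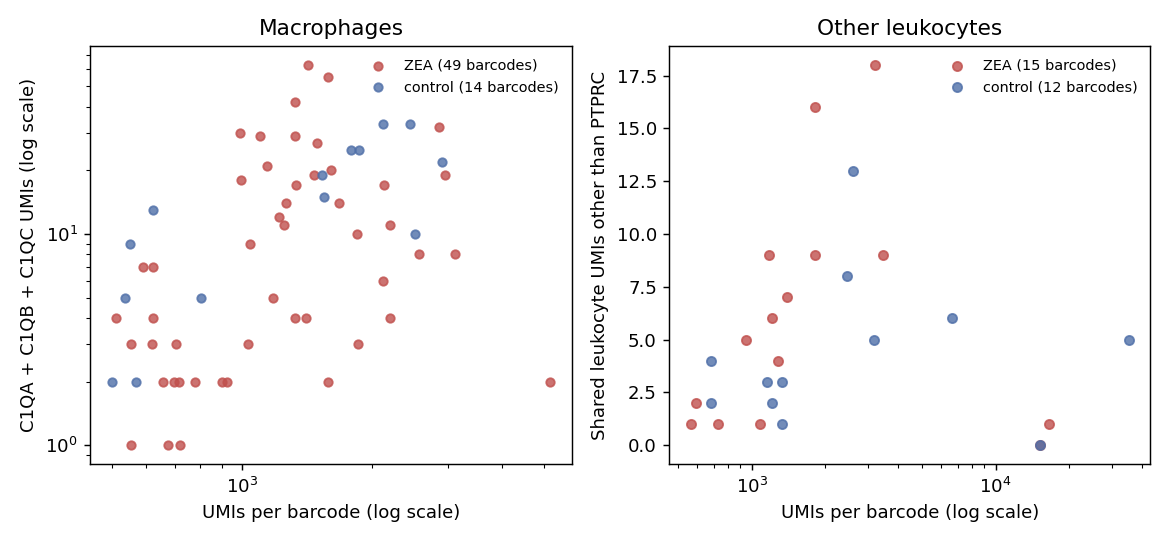
Each point is 1 leukocyte barcode, with its total UMIs on a log axis. The left panel shows macrophages against the sum of C1QA, C1QB and C1QC UMIs (log axis), 49 ZEA cells with a median of 7 and 14 control cells with a median of 14. The right panel shows other leukocytes against the UMIs of the shared leukocyte list other than PTPRC, where the deepest barcodes hold few.

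The C1q genes were close in level in the macrophages of both libraries. C1QA had 351 UMIs (5116 CPM, UMIs of the gene per 1000000 summed macrophage UMIs) in ZEA macrophages and 126 UMIs (6211 CPM) in control macrophages. C1QB had 2187 CPM in ZEA macrophages, against 2958 in control macrophages, and C1QC 1647, against 1577. Single cells ranged from 1 to 63 C1Q UMIs in the ZEA library and from 2 to 33 in the control library. The ranges overlapped, and the highest cells were ZEA cells. All other barcodes together held 2.36 CPM of C1QA in the ZEA library and 0.227 in the control library. PTPRC was sparse, with 22 UMIs in 17 of 49 ZEA macrophages and 5 UMIs in 5 of 14 control macrophages.

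Genes outside the rule gave the same cells a macrophage profile. Without the C1q genes, the macrophage identity list summed to 5598 CPM (5052 to 6186) in ZEA macrophages and 5521 (4546 to 6643) in control macrophages, a log2 ratio of 0.02 (-0.29 to 0.34). All other barcodes held 700 CPM of it in the ZEA library and 886 in the control library. CTSS, the lysosomal protease cathepsin S, had 142 UMIs (2069.9 CPM) in ZEA and 29 UMIs (1429 CPM) in control macrophages (log2 ratio 0.53, -0.05 to 1.16). TYROBP, the adaptor of activating receptors on myeloid cells, had 525 CPM in ZEA macrophages, against 789 in control macrophages. Thinned to 500 UMIs per cell, TYROBP was found in 22.4% of ZEA and 21.4% of control macrophages, against 0.162% of ZEA and 0.0272% of control germ barcodes. Germ barcodes are non-members with at least 10 UMIs of the spermatid list and 0 of the endothelial, stromal and pericyte lists, and their median depth was 1230.0 UMIs in the ZEA library and 2625 in the control library. AIF1, known from macrophages as IBA1, had 1545 CPM in ZEA and 1577 in control macrophages, but also 625 CPM in all other ZEA and 860.4 CPM in all other control barcodes, so it did not mark the cells here. Without C1q and AIF1, the identity list held 4052 CPM in ZEA macrophages, against 75.2 in all other ZEA barcodes. In the control library these were 3943 and 25.6 CPM. CSF1R, the receptor for the growth factor that sustains macrophages, had only 5 ZEA and 2 control UMIs, and CD14, the lipopolysaccharide co-receptor of monocytes, had 1 ZEA UMI and 0 control UMIs.

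Scavenger receptors of resident macrophages were seen in both libraries. MRC1, the mannose receptor CD206, had 46 UMIs (671 CPM) in 21 of 49 ZEA macrophages and 19 UMIs (937 CPM) in 7 of 14 control macrophages, with a log2 ratio of -0.48 (-1.28 to 0.37). CD163, the haemoglobin scavenger receptor, had 10 ZEA and 2 control UMIs, and F13A1, the coagulation factor XIII subunit that resident macrophages make, 15 ZEA and 5 control UMIs. At least 1 of the 3 genes was found in 26 of 49 ZEA and 8 of 14 control macrophages. Their list of tissue-resident macrophage genes also holds TIMD4, which ranked above F13A1 and CD163 in macrophages but was not counted here. The whole list summed to 1414 CPM in ZEA and 1676 CPM in control macrophages. Germ barcodes held 611 CPM of it in the ZEA library and 431 in the control library, so it was not specific. Thinned to equal depth, 23.4% of ZEA and 18.3% of control germ barcodes held it, against 51.0% of ZEA and 64.3% of control macrophages. MHC class II genes or CD74 were found in 46 of 49 ZEA and 11 of 14 control macrophages. At full depth, all 26 ZEA cells with at least 1 of the 3 genes also had a class II or CD74 UMI. So did 7 of the 8 control cells. The 3 ZEA and 2 control cells with neither were shallow, with medians of 714 UMIs in ZEA and 533.5 in control. With cells thinned to equal depth, 17 ZEA cells held at least 1 of the 3 genes, and 14 of them also had class II or CD74. In the control library 6 thinned cells held at least 1 of the 3 genes, and 5 of them also had class II or CD74. The complete overlap in ZEA cells was thus seen at full depth only. NK, mast cell, Sertoli, Leydig and erythroid lists were at 0 UMIs in the macrophages of both libraries, which allows up to 53.8 CPM in the ZEA sum and 182 CPM in the control sum.

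For differences between libraries, a gene entered with at least 20 UMIs over both macrophage sums and with a macrophage level, in the library where it was higher, of at least 2 times that in all other barcodes of that library. Of 186 genes that entered, 24 (12.9%) were at least 2-fold higher and 19 (10.2%) at least 2-fold lower in ZEA macrophages, with a median log2 ratio of -0.23. Scaling by the median gene in place of the total would raise every macrophage log2 ratio below by the size of that median. The entry condition is stricter for genes higher in the ZEA library, because its other barcodes hold many somatic cells and the control library's hold mostly germ cells. With entry set against germ barcodes of each library, an alternative added after the data were seen, the counts were 58 higher and 20 lower of 295 genes.

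Heat shock chaperones, which refold damaged proteins, were higher in ZEA macrophages as a group. The 7 measured genes summed to 1195 UMIs (17419 CPM, 16446 to 18436) in ZEA macrophages and to 144 UMIs (7098 CPM, 5986 to 8357) in control macrophages, a log2 ratio of 1.30 (1.04 to 1.55). Of 4 that entered, 3 were at least 2-fold higher and 0 lower, and their median log2 ratio was 1.78, against -0.23 over all entering genes. Entry used the level in the library where a gene was higher, so this count and median are a description only. HSP90AA1, the inducible cytosolic HSP90, had 662 UMIs (9649.9 CPM) in ZEA macrophages and 62 UMIs (3056 CPM) in control macrophages, a log2 ratio of 1.66 (1.28 to 2.06). Single ZEA cells ranged from 0 to 45867 CPM of HSP90AA1 around a median of 6789, and single control cells from 0 to 7491 around 1838, so the ranges overlapped and the highest cells were ZEA cells. HSPH1, an HSP110 exchange factor, had 52 UMIs in 16 of 49 ZEA macrophages and 1 UMI in the control sum, a log2 ratio of 3.94 with a wide interval (1.40 to 9.27), and of 0.93 with every cell thinned to 500 UMIs. HSPA8, the constitutive HSC70, was closer, with 3659 CPM in ZEA and 3105 in control macrophages (0.24, -0.17 to 0.66).

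The same list was higher outside the macrophages too. Barcodes outside the leukocytes summed to 6877 CPM of heat shock genes in the ZEA library and 2469 in the control library, and the 1696 ZEA endothelial barcodes to 12517 CPM. Without HSP90AA1, the list stood at 3961 CPM outside the leukocytes in the ZEA library and at 207 in the control library. In macrophages it then summed to 7769 CPM in ZEA and 4042 in control, a log2 ratio of 0.94 (0.61 to 1.30). The part of RNA from other cells in the macrophage difference was not tested. HSP90AB1 and HSPB1, with log2 ratios of 1.32 and 2.77 in macrophages, did not enter because all other ZEA barcodes held 1543 CPM of HSP90AB1 and 1293 of HSPB1.

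**Figure D2:**
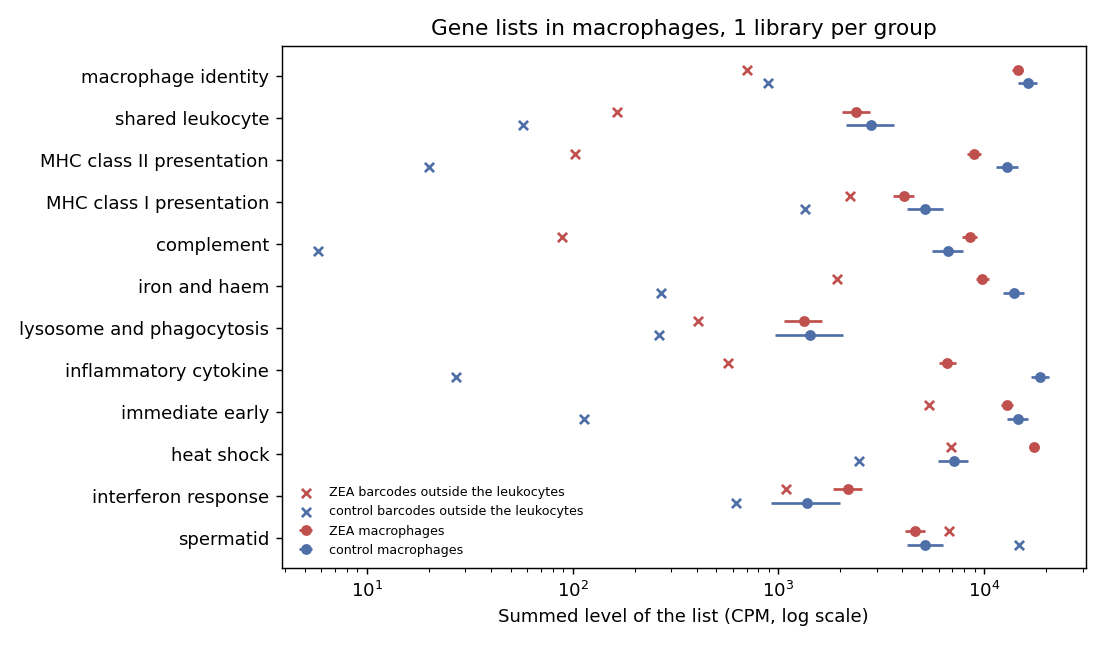
Summed level of each gene list in CPM (log axis), with ZEA above control in each row. Circles are macrophages with 95% counting intervals and crosses are all barcodes outside the leukocytes. Heat shock genes lie higher in ZEA macrophages (17419 against 7098 CPM) and inflammatory genes lower (6618 against 18633 CPM).

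NFKBIA, the inhibitor that NF-kappaB induces and that holds it in the cytoplasm, was the most abundant of the 19 transcripts at least 2-fold lower in ZEA macrophages. It had 397 UMIs (5787 CPM, 5232 to 6385) in ZEA macrophages and 344 UMIs (16957 CPM, 15212 to 18847) in control macrophages, a log2 ratio of -1.55 (-1.76 to -1.34). It was found in 34 of 49 ZEA and 9 of 14 control cells, which are close shares (69.4% and 64.3%). Thinned to 500 UMIs, 57.1% of ZEA and 64.3% of control macrophages held it, against 2.32% of ZEA and 0.0816% of control germ barcodes. The median ZEA cell had 1512 CPM (0 to 37615) and the median control cell 6390.3 CPM (0 to 46927), and the ranges overlapped. Outside the leukocytes NFKBIA had 511 CPM in the ZEA library and 2.46 in the control library, the opposite direction. In control macrophages the level of NFKBIA went with depth (Spearman rho 0.82 over 14 cells of 1 library) and with the immediate early genes (0.86). In ZEA macrophages these values were 0.45 and 0.47 over 49 cells of 1 library.

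Cytokine genes were sparse beside it. The list of 15 inflammatory genes that holds NFKBIA summed to 6618 CPM in ZEA macrophages and 18633 in control macrophages (log2 ratio -1.49, -1.69 to -1.29). Without NFKBIA it held 57 ZEA and 34 control UMIs, or 831 CPM (629 to 1077) against 1676 (1161 to 2342), a log2 ratio of -1.01 (-1.65 to -0.35). The interleukin-1 gene IL1A had 13 ZEA and 7 control UMIs, and IL1B 10 ZEA and 6 control UMIs. IL-8, a neutrophil chemokine, is not in that list, so the sums above leave it out. It had 28 UMIs (408 CPM) in ZEA and 7 UMIs (345 CPM) in control macrophages, a log2 ratio of 0.24. Only 2 of the 15 genes entered, of which NFKBIA was at least 2-fold lower and none was 2-fold higher.

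Further genes at least 2-fold lower in ZEA macrophages had various roles. PPP1R15A, the phosphatase subunit GADD34 that restores translation after stress, had 73 UMIs (1064 CPM) in ZEA macrophages and 61 UMIs (3007 CPM) in control macrophages, a log2 ratio of -1.50 (-2.01 to -0.98). BCL2A1, an anti-apoptotic target of NF-kappaB, had 21 UMIs (306 CPM) in ZEA and 25 UMIs (1232 CPM) in control macrophages (-2.01, -2.92 to -1.11). PSMB9, a subunit of the immunoproteasome, had 554 CPM in ZEA and 1183 in control macrophages (-1.09, -1.87 to -0.29). SDCBP, the adaptor syntenin, had 466 CPM in ZEA and 1084 in control macrophages (-1.22, -2.05 to -0.36).

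Immediate early genes, whose transcription follows soon after a stimulus, were high in the macrophages of both libraries. The 12 genes summed to 12871 CPM (12036 to 13749) in ZEA macrophages and 14541 (12929 to 16299) in control macrophages, a log2 ratio of -0.18 (-0.37 to 0.02) that lay between -0.29 and 0.07 over the alternatives. Their members did not go one way: JUN had 5481 CPM in ZEA and 3993 in control macrophages (0.46, 0.11 to 0.82), while FOS had 2463 in ZEA and 4486 in control macrophages (-0.86, -1.24 to -0.48). ZFP36, whose protein speeds the decay of cytokine transcripts, had 2332 CPM in ZEA and 3303 in control macrophages (-0.50, -0.92 to -0.07), but its ratio lay between -0.64 and 0.14 over the alternatives. Of 6 that entered, 1 was at least 2-fold higher and 0 lower, and the median was -0.02. In all other barcodes these genes stood at 5407 CPM in the ZEA library and at 114 CPM in the control library. At least 1 such UMI was found in 41 of 49 ZEA and 9 of 14 control macrophages, and the 5 control cells without one had a median of only 550 UMIs.

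Immediate early and heat shock levels went together across single macrophages. Spearman rho was 0.75 over the 49 ZEA cells and 0.61 over the 14 control cells, each set sharing 1 library. Immediate early levels also followed depth, with rho of 0.48 in ZEA and 0.81 in control macrophages. They went against spermatid RNA, with rho of -0.37 in ZEA and -0.68 in control macrophages. CFD showed no such relation to immediate early levels (0.03 in ZEA, 0.19 in control).

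**Figure D3:**
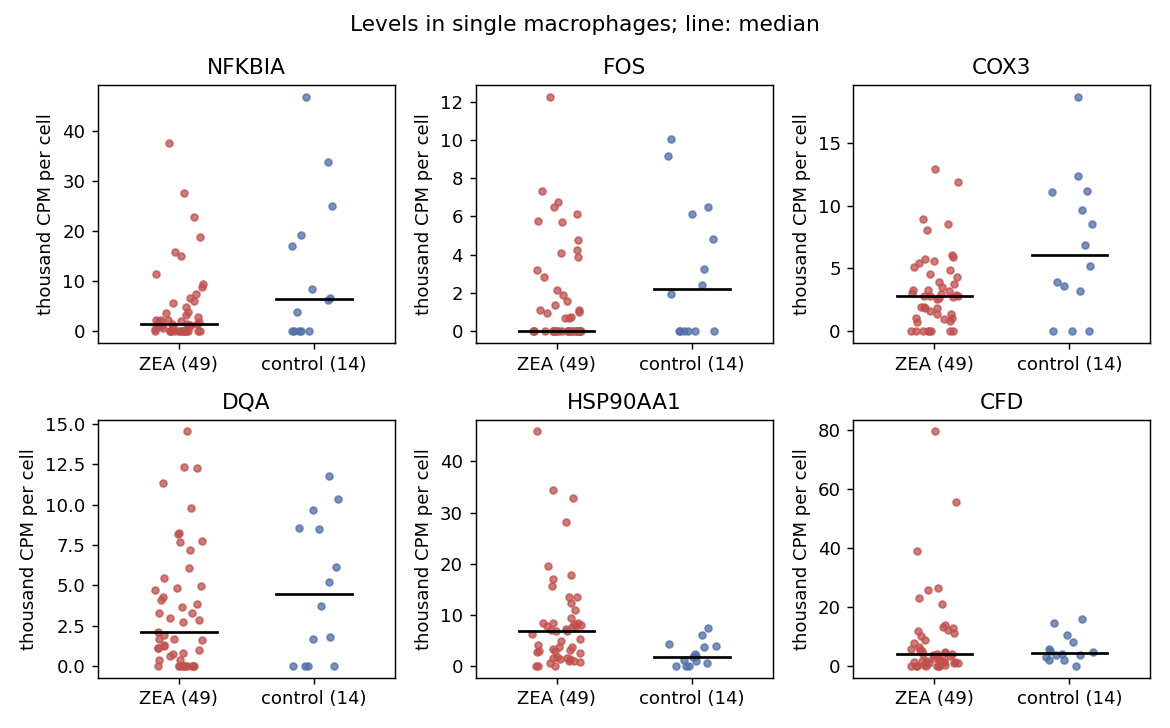
Level of 6 genes in each macrophage, in units of 1000 CPM of that cell, with ZEA cells left of control cells and a line at the median. The NFKBIA median is 1512 CPM in ZEA and 6390.3 CPM in control cells, and the HSP90AA1 median 6789 CPM in ZEA and 1838 CPM in control cells. Every pair of clouds overlaps.

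Class II antigen presentation genes were strongly expressed in the macrophages of both libraries. The class II presentation list has 11 genes, among them the lysosomal enzymes IFI30 and CTSS, of which CTSS had a log2 ratio of 0.53. The list summed to 613 UMIs (8936 CPM, 8242 to 9672) in ZEA macrophages and 262 UMIs (12915 CPM, 11398 to 14577) in control macrophages, a log2 ratio of -0.53 (-0.74 to -0.32). With equal weight per cell the ratio was -0.12, and with every cell thinned to 500 UMIs it was 0.01. None of the 6 that entered reached a 2-fold difference, and their median was -0.76. DQA, a class II alpha chain, had 246 UMIs (3586 CPM) in ZEA and 138 UMIs (6802 CPM) in control macrophages (-0.92, -1.23 to -0.61). HLA-DRA had 481 CPM in ZEA and 887 in control macrophages (-0.88, -1.75 to 0.03). HLA-DMB, which helps load peptides, was close, with 1224 CPM in ZEA and 1380.2 in control macrophages (-0.17, -0.81 to 0.50). IFI30, a lysosomal reductase that unfolds antigens, had 889 CPM in ZEA and 1380.2 in control macrophages (-0.63, -1.30 to 0.07). The class I presentation list, which includes the immunoproteasome subunit PSMB9, summed to 4052 CPM in ZEA and 5176 in control macrophages (-0.35, -0.68 to -0.02).

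Complement factor D was made in abundance by the macrophages of both libraries. CFD, the protease that starts the alternative pathway, had 571 UMIs (8323 CPM) in ZEA macrophages and 122 UMIs (6014 CPM) in control macrophages, a log2 ratio of 0.47 (0.18 to 0.76). It was found in 42 of 49 ZEA and 13 of 14 control macrophages, at medians of 3888 CPM in ZEA and 4408 in control cells, and 1 ZEA cell reached 79634 CPM and held 19.8% of the ZEA sum. All other barcodes held 9.03 CPM in the ZEA library and 0.944 in the control library. FTH1, the ferritin heavy chain that stores iron, had 9417 CPM in ZEA and 13753 in control macrophages (-0.55, -0.75 to -0.34), and 1854 CPM in all other ZEA and 265 in all other control barcodes. Lysosome and phagocytosis genes were close, with 1326 CPM (1068 to 1629) in ZEA and 1429 (957 to 2053) in control macrophages.

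RGS2, ANXA1 and CXCL9 were among the 24 genes at least 2-fold higher in ZEA macrophages. RGS2, which shortens G protein signals, had 91 UMIs (1326 CPM) in 26 of 49 ZEA macrophages and 4 UMIs (197 CPM) in 4 of 14 control macrophages, a log2 ratio of 2.75 (1.34 to 4.66). All other barcodes held 28.7 CPM of RGS2 in the ZEA library and 0.453 in the control library. ANXA1, a glucocorticoid-induced protein that limits inflammation, had 65 UMIs (947 CPM) in ZEA and 4 UMIs (197 CPM) in control macrophages (2.26, 0.84 to 4.18), with 313 CPM in all other ZEA and 66.2 in all other control barcodes. CXCL9, an interferon-gamma induced chemokine, had 82 UMIs in 11 ZEA cells and 10 UMIs in 2 control cells, 80.0% of them in 1 cell (1.28, 0.33 to 2.39). The lipid handling list held 68 ZEA and 8 control UMIs (991 CPM in ZEA, 394 in control; 1.33, 0.27 to 2.60). Of its members only LGALS3, galectin-3, entered, with 27 ZEA and 2 control UMIs. Interferon response genes summed to 2172 CPM in ZEA and 1380.2 in control macrophages (0.65, 0.06 to 1.29), with 1093 CPM in all other ZEA and 622 in all other control barcodes. SDS, a serine dehydratase, had 21 UMIs in the ZEA sum and 0 in the control sum, but 76.2% of them came from 1 cell. With 3 UMIs in place of 0 the ratio was 2.07-fold (log2 ratio 1.05, 0.07 to 1.28 over the alternatives).

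**Figure D4:**
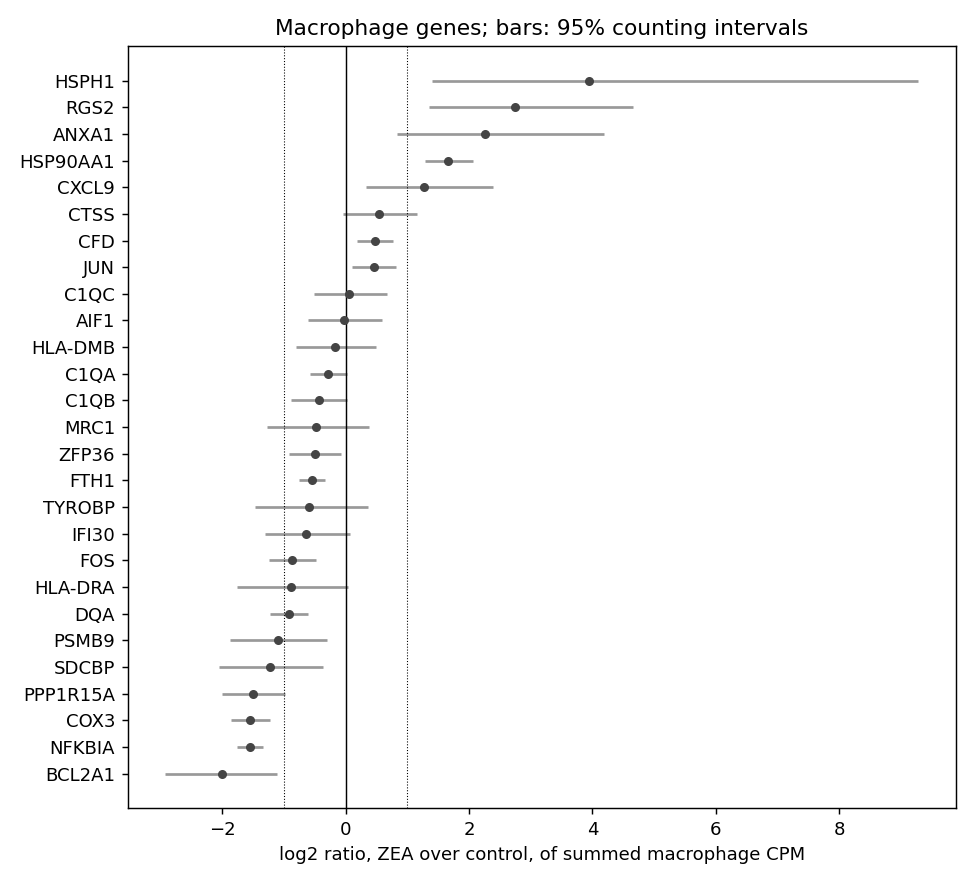
Log2 ratio of the summed macrophage CPM, ZEA over control, for named genes, with 95% counting intervals. Dotted lines mark a 2-fold difference. HSPH1, RGS2 and ANXA1 lie highest at 3.94, 2.75 and 2.26, NFKBIA and COX3 near -1.55, and the C1q genes between -0.44 and 0.06.

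Mitochondrial transcripts took more of the macrophage RNA than of that outside. The 13 mitochondrially encoded genes were a median 2.27% of UMIs in ZEA macrophages (0.128 to 11.3) and 3.08% in control macrophages (0 to 5.35). COX3, a subunit of cytochrome c oxidase, had 189 UMIs (2755 CPM) in ZEA macrophages and 163 UMIs (8035 CPM) in control macrophages, a log2 ratio of -1.54 (-1.85 to -1.23). It was the only one of the 10 mitochondrial genes that entered to reach a 2-fold difference. COX1, another subunit of the same enzyme, lay the other way, with 4475 CPM in ZEA and 3105 in control macrophages (0.53, 0.13 to 0.94), while CYTB of complex III had 3090.3 in ZEA and 5324 in control macrophages (-0.78, -1.13 to -0.44). Outside the leukocytes COX3 had 1415 CPM in the ZEA library and 718 in the control library.

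Receptors for steroid hormones gave few UMIs at this depth. ESR1 and ESR2, the oestrogen receptors, had 0 UMIs in the macrophages of both libraries, which allows up to 53.8 CPM in the ZEA sum and 182 CPM in the control sum. NR3C1, the glucocorticoid receptor, had 10 UMIs (146 CPM) in 9 ZEA macrophages and 0 in the control sum, whose limit of 182 CPM lies above the ZEA level, so a difference was not detectable. Proliferation genes held 14 UMIs (204 CPM, 112 to 342) in ZEA macrophages, against 267 CPM in all other ZEA barcodes. In control macrophages they held 6 UMIs (296 CPM, 109 to 644), against 533 CPM in all other control barcodes. Both intervals hold the level of the other barcodes, so no difference was shown.

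Other cell types left traces in the macrophage barcodes. Spermatid genes summed to 4592 CPM in ZEA and 5176 in control macrophages, in 48 of 49 ZEA and 14 of 14 control cells. All other barcodes held 6719.8 CPM of them in the ZEA library and 14708 in the control library. The 5 contractile genes held 87 ZEA UMIs and 1 control UMI, and 1 ZEA cell had 85.0% of the ZEA ACTA2. Endothelial genes held 31 ZEA and 2 control UMIs, and 1 ZEA cell had 66.7% of the ZEA PECAM1. Stromal genes held 2 ZEA UMIs and 0 control UMIs. The part of such RNA in the differences above was not tested.

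At full depth, at least 1 UMI of the T cell or the NK list was found in 12 of 15 other ZEA and 10 of 12 other control leukocytes, the control barcode of 35112 UMIs included. Thinned to 500 UMIs, the NK and cytotoxic list was found in 66.7% of other ZEA and 41.7% of other control leukocytes, against 2.05% of ZEA and 2.31% of control germ barcodes. The T cell list was found in 33.3% of other ZEA and 25.0% of other control leukocytes, against 1.18% of ZEA and 1.01% of control germ barcodes. CTSW, cathepsin W of NK and cytotoxic T cells, was the clearest marker, with 42 UMIs in 10 ZEA barcodes and 23 UMIs in 5 control barcodes, and it was at 0 in the macrophages of both libraries. CD3G, a chain of the T cell receptor complex, had 6 ZEA and 3 control UMIs, and NKG7 of cytotoxic granules had 1 UMI in each library. T cell and NK markers came together in 8 ZEA and 6 control barcodes, so the 2 types could not be separated at this depth. A lone barcode of the ZEA library, of 3199 UMIs, and a pair of the control library, of 3164 and 2469, held antigen presentation genes without C1q. They held 51, 34 and 23 UMIs of the class II presentation list, which includes IFI30 and CTSS. IFI30 gave 20 of the 51 UMIs, and CTSS gave 5, 4 and 7 UMIs in the same order. B and plasma cell genes had 1 ZEA and 6 control UMIs, and mast cell genes 0 in both.

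The label was weakly supported in most of the deepest barcodes. Over 6000 UMIs were held by 2 ZEA barcodes, with 16612 and 15252, and by 3 control barcodes, with 35112, 15196 and 6640. Each had only 2 PTPRC UMIs. The 3 control barcodes held 664, 212 and 171 spermatid UMIs, and the ZEA barcodes 88 and 2. The ZEA barcode with 2 spermatid UMIs held 287 immediate early UMIs. The control barcode of 6640 UMIs also held 8 UMIs of the shared leukocyte list, 8 of the NK and cytotoxic list and 2 of the T cell list. The doublet caller Scrublet marked that barcode and the control barcode of 35112 UMIs. The deepest barcode alone gave 32.5% of the UMIs of other ZEA leukocytes and 49.04% of those of other control leukocytes. All 12 control barcodes and 10 of 15 ZEA barcodes had exactly 2 PTPRC UMIs, the lowest number the rule allows.

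**Figure D5:**
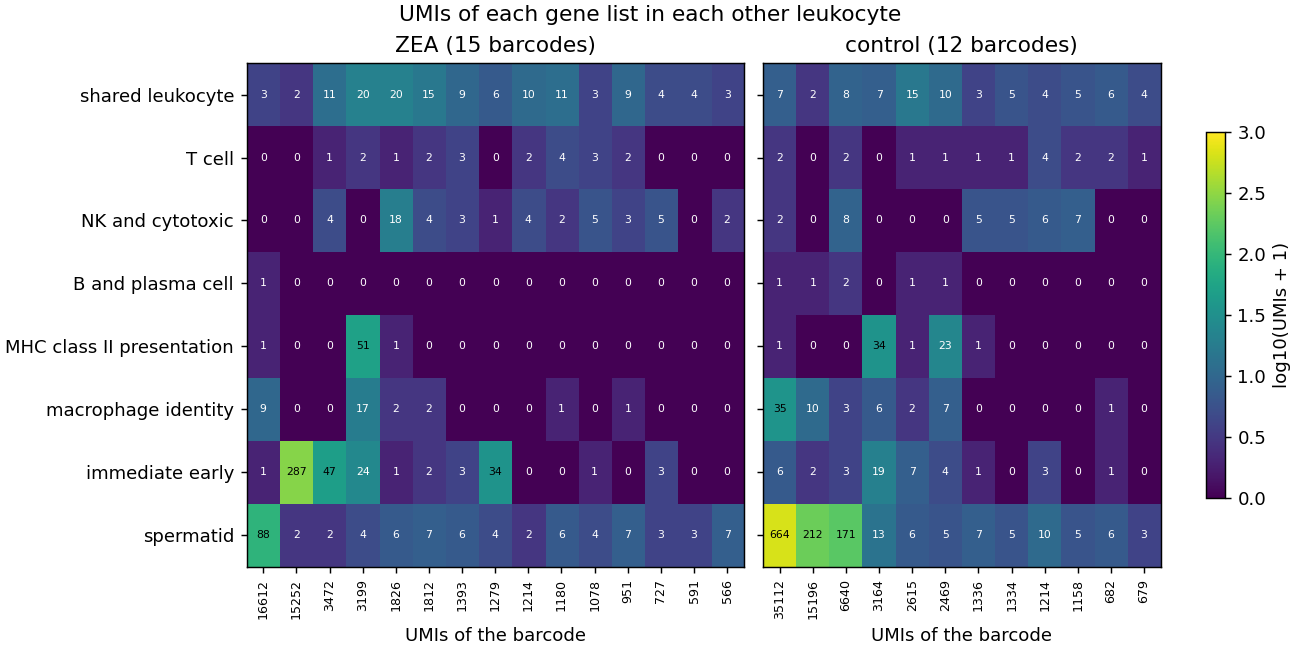
UMIs of 8 gene lists (rows) in each other leukocyte (columns, labelled with the barcode's total UMIs and ordered by it), ZEA left of control, coloured by log10(UMIs + 1). The deepest control barcodes hold up to 664 spermatid UMIs, and NK and cytotoxic UMIs reach 18 in 1 ZEA barcode and 8 in the control barcode of 6640 UMIs.

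The sums of other leukocytes in both libraries changed when deep barcodes were left out. Of 59 genes that entered, 37 (62.7%) were at least 2-fold higher and 4 (6.78%) at least 2-fold lower in the ZEA sum, with a median log2 ratio of 1.39. Without the barcodes over 6000 UMIs, an alternative added after the data were seen, 16 of 89 entering genes were higher and 8 lower. Without the deepest member of each library alone, 73 of 104 were higher and 1 lower. The log2 ratio of RPLP1, a ribosomal protein, was 2.02 over all members and 0.20 (-0.06 to 0.47) without the deep barcodes. Spermatid genes stood at 2952 CPM in other ZEA leukocytes and 15461 in other control leukocytes, and at 3163 CPM in ZEA and 4095 in control without the deep barcodes.

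In the 13 ZEA and 9 control barcodes that remained, T cell genes were close in level. The heat shock and immediate early lists were higher in the ZEA library, and the class I presentation list was lower. CTSW had 42 UMIs (2178 CPM) in the ZEA and 18 UMIs (1229 CPM) in the control barcodes, a log2 ratio of 0.83 (-0.0023 to 1.71). T cell genes summed to 1037 CPM in ZEA and 887 in control barcodes (0.22, -0.85 to 1.35), and NK and cytotoxic genes to 2644 CPM in ZEA and 1569.9 in control barcodes (0.75, 0.02 to 1.53). Heat shock genes summed to 7569 CPM in ZEA and 3344 in control barcodes (1.18, 0.70 to 1.68), and immediate early genes to 5962 CPM in ZEA and 2389 in control barcodes (1.32, 0.76 to 1.91). Barcodes outside the leukocytes held 6877 CPM of heat shock genes in the ZEA library and 2469 in the control library. Of immediate early genes they held 5407 CPM in the ZEA library and 114 in the control library. The part of RNA from other cells in these differences was not tested. The heat shock and immediate early sums of the ZEA barcodes rest mainly on 3 barcodes. Those of 3472, 3199 and 1279 UMIs held 47, 24 and 34 of the 115 immediate early UMIs, and 26, 30 and 57 of the 146 heat shock UMIs. The barcode of 3472 UMIs also held 62 of the 63 contractile UMIs of the ZEA barcodes that remained, so its RNA was mixed. The unfolded protein response list summed to 2178 CPM in ZEA and 3344 in control barcodes (-0.62, -1.25 to 0.01), and the antioxidant list to 726 CPM in ZEA and 751 in control barcodes (-0.05, -1.29 to 1.23). Class I presentation was lower, at 2800 CPM in ZEA and 5529 in control barcodes (-0.98, -1.51 to -0.47). So were class II presentation (-0.58, -1.15 to -0.02) and complement (-2.98, -5.39 to -1.21), the latter with 3 ZEA and 18 control UMIs. The inflammatory (1.83, 0.77 to 3.05) and apoptosis lists (3.11, 1.44 to 5.45) were among those higher, the latter with 34 ZEA and 3 control UMIs. NFKBIA had 31 ZEA UMIs, 27 of them in the barcode of 3199 UMIs, and 8 control UMIs, all in the barcode of 3164 UMIs. Both are barcodes rich in UMIs of the class II presentation list, so these sums rest on 1 cell per library.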

How the data were processed

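The authors deposited raw UMI counts per gene and barcode for 1 ZEA and 1 control library, as whole numbers without normalization. Per the submitters' processing notes, Cell Ranger 3.1.0 and STAR were used. Per the file headers, version 3.1.0 of that software wrote the ZEA matrix and version 5.0.0 the control one, so version and group cannot be told apart. No source used here gives a genome build. Of 27054 genes in each matrix, 10636 have no symbol and are not named.

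Members followed the rule in the text, with no limit on mitochondrial share and doublets kept. Scrublet (scanpy 1.11.5) marked 2 ZEA and 205 control barcodes, among them 0 ZEA members and 2 control members. It marked few ZEA barcodes, and its calls were used only as an alternative. Counts were summed over the cells of a class per library and scaled to CPM, the UMIs per 1000000. Intervals are exact Poisson for sums, Clopper-Pearson for shares and conditional binomial for ratios. Ratios took 3 UMIs in place of 0. Germ barcodes were non-members with at least 10 spermatid UMIs and 0 endothelial, stromal and pericyte UMIs. The code was tested on simulated counts. Python 3.11.15, numpy 2.4.6, scipy 1.17.1 and pandas 2.3.3 were used.

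Named genes were, per class, up to 8 highest and 8 lowest ratios past 2-fold with at least 50 UMIs, the 10 most enriched genes per library, and the most abundant members of each of 34 gene lists, of whose 454 entries 347 are in the files. SDS is named among the enriched genes. Some genes that the rule names are not reported here. The members, lists and rules were chosen with earlier results of these data known.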

Additional observations from a re-analysis of the deposited data

How the results depend on the processing

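No paired analysis was possible because each group is 1 library, so the groups share fewer than 2 replicate numbers. The macrophage share ratio lay between 2.03 and 3.91 over its 7 alternatives (2.79 as reported). The share ratio of other leukocytes was 4.79 with the rule applied after thinning to 500 UMIs, where 6 ZEA barcodes and 1 control barcode remained. Macrophages were 89.2% of ZEA members at 4 or more marker UMIs, and 100% of control members at 4 or more marker UMIs and 92.9% of them after thinning. With 4 or more marker UMIs 0 other control leukocytes remained, so that class was not run there. Macrophage genes at least 2-fold higher numbered 10 with members thinned, 7 with entry at 50 UMIs, 91 with no entry rule and 58 with entry against germ barcodes (24 as reported). Those lower numbered 9 with members thinned, 11 under median scaling, 10 with entry at 50 UMIs and 70 with no entry rule (19 as reported). In other leukocytes the higher genes numbered 23 without Scrublet calls, 5 thinned, 15 under median scaling, 10 at 50 UMIs, 209 with no entry rule, 73 without the deepest member, 155 against germ barcodes and 16 without members over 6000 UMIs. The lower ones numbered 7, 1, 13, 0, 464, 1, 129 and 8 in the same order, and 13 with equal weight per cell. Among values of at least 2-fold in the full data, the signs reversed in macrophages for the endothelial list sum at 4 or more marker UMIs (-0.39) and for the apoptosis list median when thinned (1.31). In other leukocytes they reversed under median scaling for the NK list (sum -0.28, median -0.0381), the shared leukocyte list (sum -0.13, median -0.15), the unfolded protein response (-0.39), steroid receptors (-0.17), CTSW (-0.0381) and PTPRC (-0.13). The unfolded protein response also reversed when thinned (-0.32), with equal weight per cell (-0.32) and without members over 6000 UMIs (-0.62). The spermatocyte list reversed without the deepest member (-1.14) and without members over 6000 UMIs (-0.81), steroid receptors without Scrublet calls (-0.0402), and the interferon response median with no entry rule (-1.01). Smaller ratios changed sign too. In macrophages these included the sums of the shared leukocyte list (-0.24, to 0.72 in the furthest alternative), lysosome genes (-0.11, to 0.12), the class II presentation list (-0.53, to 0.01) and immediate early genes (-0.18, to 0.07). In other leukocytes they included the T cell (0.72, to -0.67), class II presentation (0.31, to -1.09), class I presentation (0.40, to -1.26), interferon (0.46, to -0.93) and antioxidant lists (0.84, to -0.55). The causes were not tested. Entry against germ barcodes, members with a further leukocyte UMI and leaving out members over 6000 UMIs were added after seeing the data. Heat shock sums in macrophages kept log2 ratios of 1.17 to 1.90, HSP90AA1 1.53 to 2.51, and NFKBIA -1.58 to -1.29. HSPH1, with 1 control UMI, was 0.93 when thinned. With 20287 control macrophage UMIs, a gene at 0 there may stand at up to 182 CPM.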

Other observations

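CD2, an adhesion receptor known from T and NK cells, had 10 UMIs in 8 of 49 ZEA macrophages and 3 UMIs in 3 of 14 control macrophages (146 CPM in ZEA, 148 in control). All other barcodes held 0.499 CPM of it in the ZEA library and 0.812 in the control library. CTSW was at 0 in the same macrophages.

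A ZEA barcode of 12083 UMIs that the plasma cell condition removed held 10 C1QA and 2 C1QC UMIs beside 28 JCHAIN, 5 MZB1 and 6 CD79A UMIs. A ZEA barcode of 6856 UMIs that the endothelial condition removed held 3 C1QA UMIs beside 3 VWF and 10 CDH5 UMIs. Among the macrophages, 1 ZEA cell of 3122 UMIs held 51 ACTA2 and 19 MYH11 UMIs, and 1 ZEA cell of 1034 UMIs held 14 PECAM1 UMIs. The ZEA macrophage with the most C1Q, 63 UMIs, held 113 CFD UMIs of 1419.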
